A study of Mus musculus with 3 samples.

Results

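Chaperones and heat shock proteins are described here through 89 genes, out of 14047 genes with a value on every array. Members were taken by symbol from the platform's probe annotation: the heat shock protein families of HSP70, HSP110, HSP90, HSP60 and HSP10 and the small heat shock proteins, the J proteins, the CCT chaperonin, the FK506-binding proteins, the BAG cochaperones and the protein disulfide isomerases Pdia3 to Pdia6. In all 94 symbols matched, and 5 of them lacked a value on array 2 and were not tested. Each of 3 two-colour arrays of the Compugen mouse oligonucleotide set compared metanephroi of 11.5 days post coitum (dpc) with metanephric mesenchyme of 10.5 dpc, both microdissected from CD1 mouse embryos of pooled sex and measured as amplified RNA. Arrays 1 and 2 had the dye order red/green and array 3 had green/red. The labels do not say whether the arrays came from separate dissections, so a p-value here covers the spread of these 3 arrays alone, and that spread may be technical.

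Molecular chaperones bind unfolded or partly folded proteins and keep them from aggregating until they reach their native form. HSP70 proteins work in cycles of ATP binding and hydrolysis, in which J proteins bring substrates and trigger hydrolysis and nucleotide exchange factors of the BAG and HSP110 families reset the cycle. HSP90 and the ring-shaped chaperonins act on later folding steps, and the endoplasmic reticulum has its own set with disulfide isomerases. The metanephros forms when the ureteric bud, an epithelial outgrowth, enters the metanephric mesenchyme, and many of these genes are expressed in every dividing cell.

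The deposited value is the log2 ratio of both channels of an array. The labels do not name the tissue on top of the ratio. A positive and a negative sign therefore stand for opposite tissues, and neither sign could be assigned to the 11.5 dpc metanephroi or to the 10.5 dpc mesenchyme. A ratio does not show how abundant a transcript was, and no levels were compared between genes. In bulk tissue, fewer cells of a type and less RNA per cell cannot be told apart.

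Among the 89 members, 41 had a positive and 48 a negative mean log2 ratio over the arrays, where 49.8% of all genes were positive and 50.2% negative. With array 3 turned the other way 57 members were positive and 32 negative, and without array 2 there were 34 positive and 55 negative. The median was -0.04 for members and -0.00195 for all genes. No member passed an adjusted p of 0.05 by limma with Benjamini-Hochberg adjustment over all genes, where 0% of the 14047 genes passed. At an unadjusted p under 0.05 there were 21 members, 23.6%, against 19.6% of all genes. Of these, 11 were positive, 12.4% of members against 9.89% of all genes, and 10 were negative, 11.2% against 9.69%. The share of members at that level is close to the share of all genes. With array 3 turned the other way 0 of the 21 stayed under 0.05 and 3 members in all were under it. All 21 had 1 sign on every array, so turning array 3 had to draw their means toward 0. Their loss in that setting is therefore no test of these genes. With array 1 left out 9 of the 21 stayed, with array 2 left out 13 and with array 3 left out 16, and 9 genes stayed whichever array was left out.

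The members under that threshold were spread over the families. Furthest out on the positive side lay the J protein genes Dnajc28, Dnajb9 and Dnajb13, the FK506-binding protein gene Fkbp7 and the small heat shock protein gene Hspb11. Furthest out on the negative side lay Fkbp8, the CCT subunit genes Tcp1 and Cct5, and the J protein gene Dnajc30. Dnajc25, Dnajc8 and Hspa4l had means as low, but their arrays lay on both sides of 0. Hspa8, Hspa9, Hspd1, Hspe1, Hspa5 and Hsp90b1, picked out after their values were seen, had means between -0.23 and -0.01, while other widely studied members such as Tcp1, Dnaja1, Fkbp4 and Pdia3 lay further from 0. A mean of at least 1 in log2 size, which is a 2-fold ratio, was found for 7 members, 7.87%, against 8.06% of all genes, and a mean of at least 0.5 for 26 members, 29.2%, against 29.8%. On every array 17 members were positive, 19.1% against 22.9% of all genes, and 26 were negative, 29.2% against 22.5%. The median SD over the arrays was 0.294 for members and 0.337 for all genes.

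**Figure D1:**
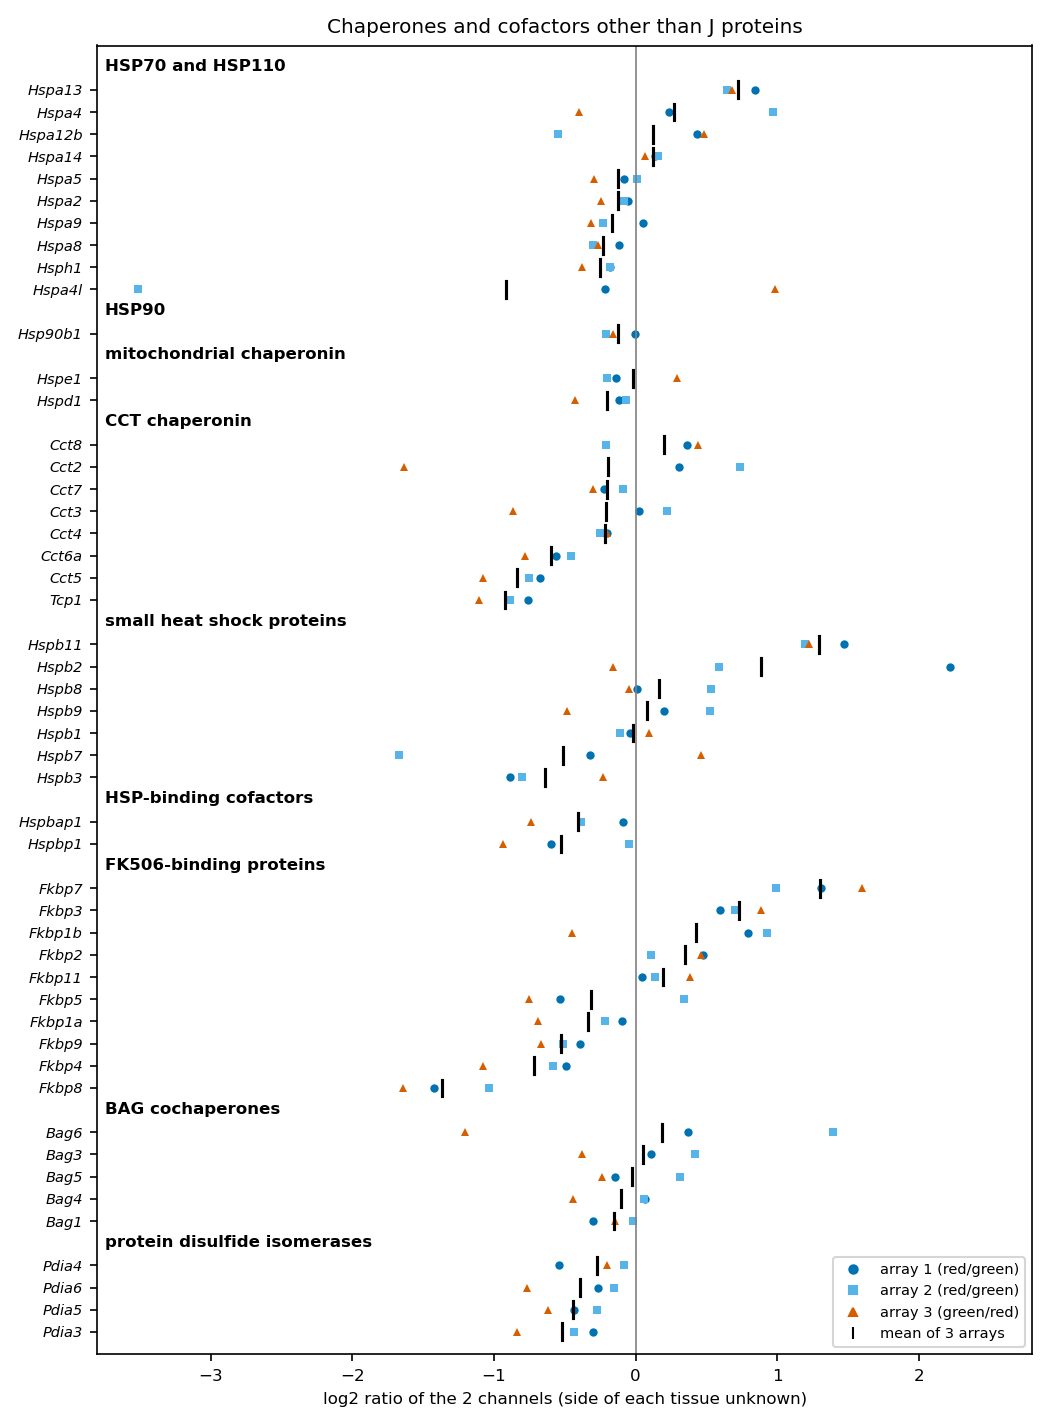
Log2 ratio (x axis) of each member other than the J proteins (rows, ordered by mean within its class) on array 1 (dark blue circles), array 2 (light blue squares) and array 3 (orange triangles), with the mean of the arrays as a black bar. The 4 disulfide isomerases lie left of 0 on every array, and Hspa4l spans the widest range.

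HSP70 proteins are the central ATP-driven chaperones, and HSP110 proteins such as Hsph1 act as their nucleotide exchange factors. Of 10 measured genes of both families, 1 was under an unadjusted p of 0.05, against 19.6% of all genes. It was Hspa13, which encodes an HSP70-like protein of the microsomes. Hspa13 had log2 ratios of 0.85, 0.65 and 0.68 on arrays 1, 2 and 3, a mean of 0.72 ± 0.11 (SD, n = 3) and an adjusted p of 0.161 by limma. All arrays were positive and close to each other. Without array 1 it was no longer under the unadjusted threshold.

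Hspa8, the constitutive cytosolic HSP70, had ratios of -0.12, -0.30 and -0.27, with a mean of -0.23 ± 0.10. It was read by a pair of probes, with means of -0.05 and -0.41. Both lay on the negative side, but the size differed between them by more than the SD over the arrays of either, 0.10 and 0.09. The mitochondrial HSP70 gene Hspa9 had 0.05, -0.23 and -0.32, so array 1 was on the other side. Hspa5, which encodes BiP, the HSP70 of the endoplasmic reticulum, had -0.08, 0.01 and -0.29. Its probes had opposite signs on every array, with -0.36, -0.10 and 0.03 for the first and 0.19, 0.12 and -0.62 for the second, so these gene values average a disagreement. Hsph1 was negative on every array, at -0.18, -0.18 and -0.38, with a mean of -0.25 ± 0.11 and an adjusted p of 0.409 by limma.

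Hspa4l, an HSP110 family gene, had the largest spread of all members. Its ratios were -0.22, -3.51 and 0.99, so array 2 alone set its mean of -0.92 ± 2.33, which was 0.38 without array 2. The other 4 genes of these families had means from -0.12 to 0.27, and 2 of them kept 1 sign on every array. Hspa1a, the stress-inducible HSP70, was among the genes without a value on array 2, and had 2.40 on array 1 and -0.09 on array 3. Hspa12a had 0.92 and -1.81, and Hspa1l had 0.26 and 0.81 on the same arrays.

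Hsp90b1 encodes GRP94, the HSP90 of the endoplasmic reticulum, and was the 1 HSP90 gene measured under the rule. Its ratios were -0.0014, -0.21 and -0.16, with a mean of -0.12 ± 0.11. Hspd1 and Hspe1 encode the mitochondrial chaperonin HSP60 and its lid HSP10. Hspd1 had -0.12, -0.07 and -0.43, negative on each array. Hspe1 had -0.14, -0.20 and 0.30, so array 3 was on the other side and the mean was -0.01 ± 0.27.

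The CCT chaperonin is a double ring of related subunits that folds actin and tubulin in the cytosol. Of 8 measured subunit genes 7 had a negative mean, and 5 were negative on every array, against 22.5% of all genes. Among the 5 was Cct4, named after its values were seen, whose probes had means of -0.38 and -0.06. On array 3 these probes had opposite signs, at -0.67 and 0.27. Without array 3 there were 5 of 8 negative means, and with array 3 turned the other way 6 of 8. The class median was -0.21, but -0.38 without array 1, -0.54 without array 2, -0.46 with a dye term in the fit and -0.081 with array 3 turned. Tcp1, the founding subunit, had -0.76, -0.89 and -1.11, with a mean of -0.92 ± 0.18 and an adjusted p of 0.157 by limma. Cct5 had -0.67, -0.75 and -1.08 and a mean of -0.83 ± 0.21, and Cct6a had -0.56, -0.45 and -0.78 and a mean of -0.60 ± 0.17. These 3 of the 8 subunits were under an unadjusted p of 0.05, against 19.6% of all genes. All their arrays were negative, and array 3 was the lowest. Tcp1 and Cct5 stayed under that threshold whichever array was left out, and Cct6a did not without array 1 or without array 3. A second Tcp1 probe, which had no value on array 2 and did not enter the mean, had -0.88 on array 1 and 1.84 on array 3. With that probe included the mean of Tcp1 was -0.45 and the gene was no longer under the unadjusted threshold.

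The remaining 5 subunits lay between -0.22 and 0.20, and Cct8 was the positive member. The measured ratios of the subunits therefore differed in size, and these differences between subunits were not tested. Cct2 and Cct3, named after their values were seen, were positive on arrays 1 and 2 and negative on array 3, at -1.63 and -0.86. Cct6b, a testis paralog of Cct6a, had 0.03 on array 1 and -0.56 on array 3, with no value on array 2.

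Small heat shock proteins hold unfolding proteins without ATP, and several are named for their expression in muscle. Of 7 measured genes, 2 were under an unadjusted p of 0.05, against 19.6% of all genes, and these 2 had opposite signs. Hspb11, also known as Ift25, a subunit of the intraflagellar transport complex of cilia, had 1.47, 1.19 and 1.23. Its mean was 1.30 ± 0.15, a 2.46-fold ratio, at an adjusted p of 0.149 by limma. It stayed under the unadjusted threshold whichever array was left out. Hspb3, a small heat shock protein of muscle, had -0.89, -0.80 and -0.23, with a mean of -0.64 ± 0.36 and an adjusted p of 0.223 by limma. It was not under the unadjusted threshold without array 1 or without array 2.

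Hspb2, the muscle partner of Hspb3, had 2.22, 0.59 and -0.16, so its arrays lay on both sides of 0. Hspb1, which encodes HSP25, had -0.04, -0.11 and 0.09. The other 3 genes had means from -0.51 to 0.16 and arrays on both sides. Skeletal muscle and somite markers lay on the negative side, with 8 of 8 means negative, from -4.96 for Acta1 to -0.17 for Myod1. Their part in the ratio of Hspb3 was not tested. Hspbp1, a nucleotide exchange factor of HSP70, had -0.60, -0.05 and -0.94, and Hspbap1, a binding partner of Hspb1, had -0.09, -0.38 and -0.74. Both were negative on every array, at adjusted p of 0.319 and 0.344 by limma.

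**Figure D2:**
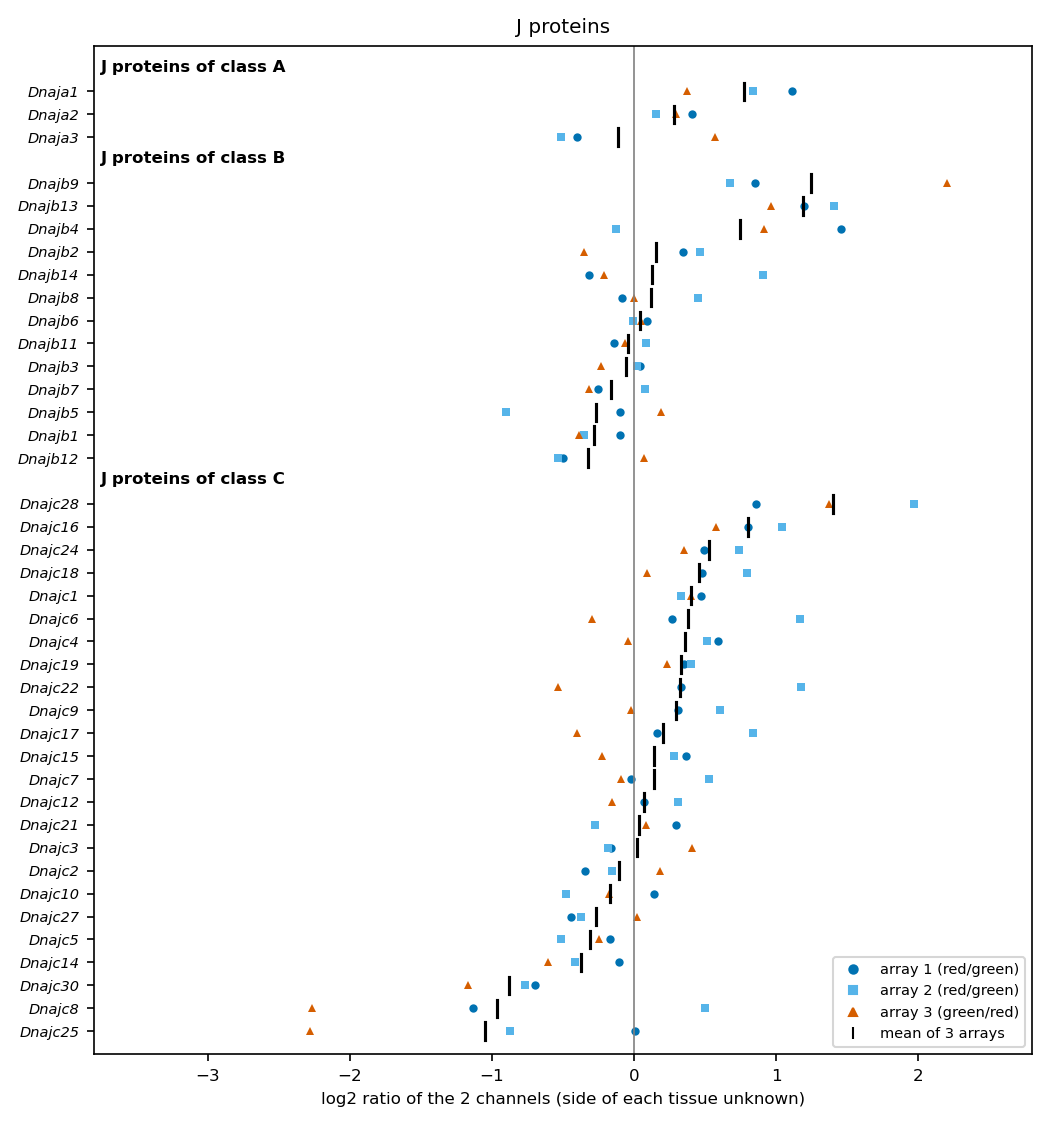
Log2 ratio (x axis) of each of the 40 J protein genes (rows, ordered by mean within its class) on array 1 (dark blue circles), array 2 (light blue squares) and array 3 (orange triangles), with the mean of the arrays as a black bar. Dnajc28, Dnajb9 and Dnajb13 lie furthest to the right, and Dnajc25, Dnajc8 and Dnajc30 furthest to the left.

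J proteins carry a domain that binds HSP70 and drives its ATP hydrolysis, and they direct HSP70 to particular substrates and compartments. They made up 40 of the 89 members, with 25 positive and 15 negative means and a median of 0.12. Without array 2 there were 19 positive and 21 negative means. At an unadjusted p under 0.05 there were 7 positive and 1 negative, against 9.89% and 9.69% of all genes. On every array 10 of the 40 were positive and 4 were negative, against 22.9% and 22.5% of all genes.

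Class A J proteins resemble the bacterial founder of the family. Dnaja1, a general partner of cytosolic HSP70, had 1.11, 0.84 and 0.37, with a mean of 0.77 ± 0.37 and an adjusted p of 0.191 by limma. All arrays were positive, and array 3 was the lowest. It was not under the unadjusted threshold without array 1 or without array 2. Dnaja2, of like function, had 0.40, 0.15 and 0.29, with a mean of 0.28 ± 0.13 and an adjusted p of 0.364 by limma. Dnaja3, the mitochondrial class A protein, had -0.40, -0.51 and 0.57, with array 3 on the other side. Dnaja4 had -0.19 on array 1 and -0.30 on array 3, and no value on array 2.

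Among 13 class B genes the median was 0.04. Dnajb13, a component of the radial spokes of sperm flagella and motile cilia, had 1.20, 1.40 and 0.97, with a mean of 1.19 ± 0.22 and an adjusted p of 0.149 by limma. Dnajb9, an endoplasmic reticulum J protein that binds BiP, had 0.85, 0.67 and 2.20, with a mean of 1.24 ± 0.84 and an adjusted p of 0.215 by limma. Array 3 was far above the other arrays for Dnajb9, and without array 1 the gene was no longer under the unadjusted threshold. With array 3 turned the other way its mean was -0.23.

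Dnajb4 had gene values of 1.46, -0.13 and 0.91, and its probes differed: 1 had 2.58, -0.69 and 2.17, and the other had 0.34, 0.43 and -0.34. Dnajb1, the heat-inducible partner of cytosolic HSP70, was negative on every array, at -0.10, -0.35 and -0.39, with a mean of -0.28 ± 0.16. The other 9 class B genes had means from -0.32 to 0.15, and 0 of them kept 1 sign on all arrays.

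Class C J proteins share the J domain alone and are the most varied class. Of 24 measured, 16 had a positive and 8 a negative mean, with a median of 0.14. Without array 2 these were 11 and 13, with a median of -0.017. Dnajc28 had 0.86, 1.97 and 1.37, and its mean of 1.40 ± 0.56 was the highest of all members, with an adjusted p of 0.160 by limma. Dnajc16, of the endoplasmic reticulum membrane, had 0.80, 1.04 and 0.58 and a mean of 0.81 ± 0.23. Dnajc24, which takes part in making diphthamide on elongation factor 2, had 0.49, 0.74 and 0.35 and a mean of 0.53 ± 0.20. All of these were positive on every array, and only Dnajc28 among them stayed under the unadjusted threshold whichever array was left out.

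Dnajc1, another endoplasmic reticulum membrane protein, had a mean of 0.40 ± 0.07 from probes that differed, with means of 0.75 ± 0.32 and 0.05 ± 0.43. On array 2 these probes had opposite signs, at 1.10 and -0.44. The SD of 0.07 is that of their average and is smaller than that of either probe. Dnajc1 lost the unadjusted threshold whichever array was left out. Dnajc30, a mitochondrial J protein that interacts with ATP synthase, was the negative member under that threshold. Its ratios were -0.69, -0.77 and -1.17, with a mean of -0.88 ± 0.26 and an adjusted p of 0.162 by limma, and it stayed under the unadjusted threshold whichever array was left out.

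Dnajc8, which associates with the splicing machinery, had -1.13, 0.50 and -2.27, so its mean of -0.97 ± 1.39 rested on arrays 1 and 3. Dnajc2, the ribosome-bound J protein, was the 1 member whose complete probes had means of opposite sign, -0.64 and 0.43, and its gene mean was -0.11 ± 0.27. Both probes carry the same accession, so the gene's sign is not settled by these arrays. A further Dnajc2 probe, which had no value on array 2 and did not enter the mean, had 0.49 on array 1 and -1.04 on array 3. The other 17 class C genes had means from -1.05 to 0.46, and 4 of them kept 1 sign on all arrays.

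FK506-binding proteins are prolyl isomerases, and several are cochaperones or residents of the endoplasmic reticulum. Of 10 measured genes 8 had the same sign on every array, 4 positive and 4 negative, against 45.5% of all genes. At an unadjusted p under 0.05 were 2 positive and 3 negative genes of the 10, against 9.89% and 9.69% of all genes. Fkbp8, an inhibitor of apoptosis on the mitochondrial surface, had -1.43, -1.03 and -1.64. Its mean of -1.37 ± 0.31, a 2.58-fold ratio, was the lowest of all members, at an adjusted p of 0.149 by limma. Fkbp7, of the endoplasmic reticulum, had 1.31, 0.99 and 1.60, and its mean of 1.30 ± 0.30 lay nearly as far on the other side, at an adjusted p of 0.151 by limma.

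Fkbp3, a nuclear member of the family, had 0.60, 0.70 and 0.88, with a mean of 0.73 ± 0.14. Fkbp4, an HSP90 cochaperone of steroid receptors, had -0.49, -0.58 and -1.08, with a mean of -0.72 ± 0.32 and an adjusted p of 0.188 by limma. Fkbp9, of the endoplasmic reticulum, had -0.39, -0.51 and -0.67, with a mean of -0.52 ± 0.14. Fkbp8, Fkbp7 and Fkbp3 stayed under the unadjusted threshold whichever array was left out. Fkbp4 did so without array 3 but not without array 1 or array 2, and Fkbp9 lost it in each case. With array 3 turned the other way the mean of Fkbp4 was 0.0016. The other 5 genes lay between -0.33 and 0.43.

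BAG proteins release nucleotide from HSP70 through a shared domain. None of the 5 measured genes was under an unadjusted p of 0.05, against 19.6% of all genes. The means of the 5 lay between -0.15 and 0.19. Bag1 was negative on every array, at -0.30, -0.01 and -0.14. Bag6, which guards newly made membrane proteins, had 0.37, 1.40 and -1.20, Bag3, which serves selective autophagy, had 0.11, 0.42 and -0.38, and Bag4 had 0.07, 0.06 and -0.44. These 3 genes were positive on arrays 1 and 2 and negative on array 3.

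Protein disulfide isomerases form and exchange disulfide bonds in the endoplasmic reticulum. All 4 measured genes were negative on all 3 arrays, where 22.5% of all genes were. With array 3 turned the other way 2 of the 4 means were positive. Pdia3, which works with calreticulin and calnexin on glycoproteins, had -0.30, -0.43 and -0.84. Pdia5 had -0.43, -0.27 and -0.62, and Pdia6 had -0.27, -0.15 and -0.77. Their means were -0.52 ± 0.28, -0.44 ± 0.17 and -0.40 ± 0.33, at adjusted p of 0.243, 0.245 and 0.352 by limma. Pdia3 and Pdia5 were under an unadjusted p of 0.05, against 19.6% of all genes. Both lost that threshold when any 1 array was left out. Pdia4 had a mean of -0.28.

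**Figure D3:**
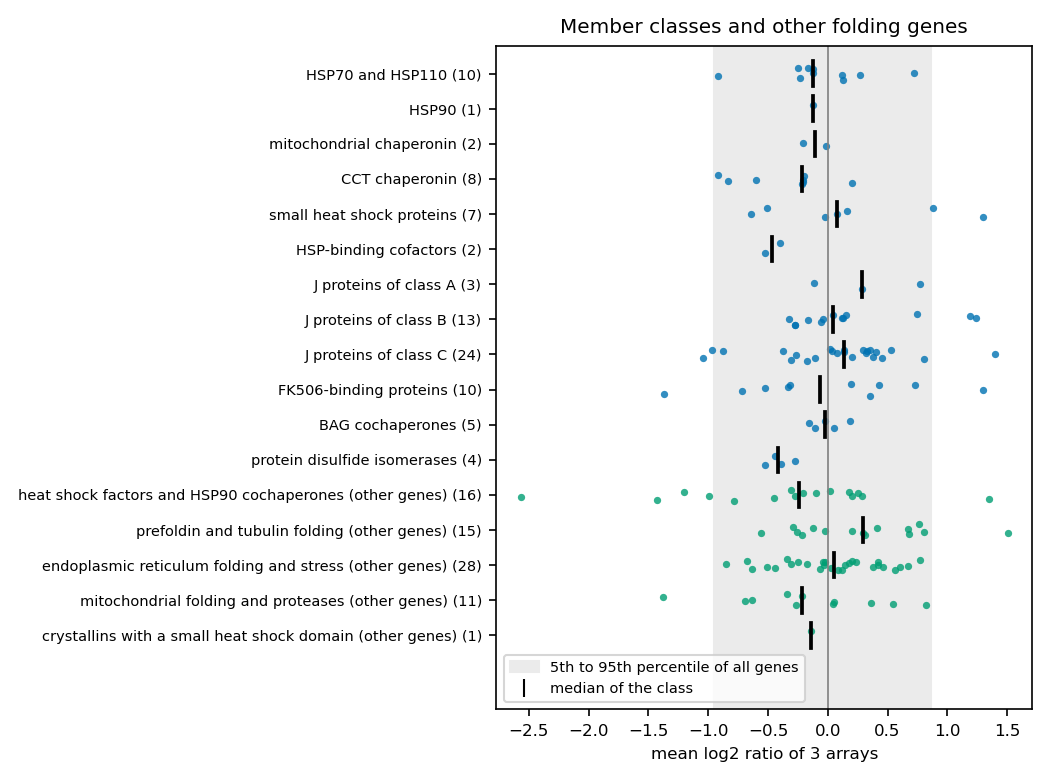
Mean log2 ratio of the 3 arrays (x axis) for each member (blue) and each other folding gene (green), by class or list (rows, number of genes in parentheses), with the class median as a black bar and the 5th to 95th percentile of all genes, -0.95 to 0.87, as a grey band. The disulfide isomerases, the HSP-binding cofactors and the mitochondrial chaperonin have all their points left of 0, and Stip1 lies furthest left at -2.57.

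Grouped by compartment, the members did not lie on 1 side. The 21 members of the endoplasmic reticulum had 10 positive and 11 negative means and a median of -0.04. Of the 21, 5 positive and 3 negative genes were under an unadjusted p of 0.05, against 9.89% and 9.69% of all genes. Of the 21 members 14 kept 1 sign on every array, against 45.5% of all genes. The 9 mitochondrial members had 4 positive and 5 negative means and a median of -0.01. Of the members of the endoplasmic reticulum, 8 were positive and 6 negative on every array. The disulfide isomerases, Fkbp9 and Hsp90b1 were negative on every array, while Fkbp7, Dnajb9, Dnajc16, Hspa13 and Dnajc1 were positive on every array.

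Heat shock and the unfolded protein response act on many of these genes through short promoter elements. Heat shock factors bind the heat shock element, inverted repeats of GAA, and ATF6 binds the endoplasmic reticulum stress element. Promoter windows from RefSeq (GRCm38.p6), 250 bases before to 50 after each start site, matched 77 of the 89 members by symbol. They were searched on both strands for the 2-unit heat shock elements GAANNTTC and TTCNNGAA. They were also searched for the 3-unit forms that contain both, GAANNTTC continued by NNGAA and TTCNNGAA continued by NNTTC. The endoplasmic reticulum stress element was CCAAT, then 9 bases of any kind, then CCACG. The 3-unit element was found in 4 members, 5.19%, against 0.662% of 27025 genes, and the endoplasmic reticulum stress element in 4 members, 5.19%, against 0.137%. Among the 10965 genes with a window that were tested on the arrays, these shares were 0.648% and 0.201%. GAANNTTC was found in 12 members, 15.6%, against 9.04% of genes, and TTCNNGAA in 9 members, 11.7%, against 9.60%. Among the tested genes with a window, the shares of GAANNTTC and TTCNNGAA were 7.75% and 9.17%. A match describes letters in the window and is not a shown binding site.

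The windows with the 3-unit heat shock element were those of Hspd1, Hspe1, Hsph1 and Dnajb6, and those with the endoplasmic reticulum stress element were of Hspa5, Hsp90b1, Pdia6 and Dnajc3. These 8 genes had means from -0.40 to 0.04, with a median of -0.12, and 0 of the 8 were under an unadjusted p of 0.05. Dnajb6 had 0.09, -0.0087 and 0.05, and Dnajc3 had -0.16, -0.19 and 0.41. The windows of Hspd1 and Hspe1 face each other on opposite strands and share 285 bases, so their element is the same one. A 2-unit element was found in 17 members, 6 of them, 35.3%, under an unadjusted p of 0.05, against 23.6% of all members and 19.6% of all genes. The 6 were Dnaja1 and Fkbp7 on the positive side and Cct5, Cct6a, Fkbp4 and Hspb3 on the negative side. A gene with several start sites was counted when any of its windows held the element.

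The 250 bases before the start site are given for 2 genes of each kind, 5′ to 3′ on the gene's strand, with the matched element in capitals. Hspd1 (chr1:55087933-55088182, minus strand) and Dnajb6 (chr5:29735648-29735897, plus strand) show the 3-unit heat shock element, which in Hspd1 is matched 2 times in overlap. Hspa5 (chr2:34771840-34772089, plus strand) and Hsp90b1 (chr10:86705445-86705694, minus strand) show the endoplasmic reticulum stress element, which Hsp90b1 has 2 times. Dnaja1 (chr4:40722218-40722467, plus strand) and Fkbp4 (chr6:128438657-128438906, minus strand) show GAANNTTC in genes with ratios of opposite sign. Where a gene had several start sites, a window with the element was printed. The other windows of Dnaja1 and Hspd1 held no searched heat shock or endoplasmic reticulum stress element.
Hspd1: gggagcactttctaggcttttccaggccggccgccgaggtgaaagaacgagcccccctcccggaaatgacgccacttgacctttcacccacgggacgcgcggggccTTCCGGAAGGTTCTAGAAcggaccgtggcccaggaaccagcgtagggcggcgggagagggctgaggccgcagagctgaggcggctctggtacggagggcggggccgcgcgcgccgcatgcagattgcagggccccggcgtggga
Dnajb6: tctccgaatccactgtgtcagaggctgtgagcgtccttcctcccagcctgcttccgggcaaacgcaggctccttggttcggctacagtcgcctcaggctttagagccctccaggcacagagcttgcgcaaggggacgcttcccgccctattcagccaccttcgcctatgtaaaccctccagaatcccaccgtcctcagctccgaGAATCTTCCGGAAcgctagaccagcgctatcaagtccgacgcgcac
Hspa5: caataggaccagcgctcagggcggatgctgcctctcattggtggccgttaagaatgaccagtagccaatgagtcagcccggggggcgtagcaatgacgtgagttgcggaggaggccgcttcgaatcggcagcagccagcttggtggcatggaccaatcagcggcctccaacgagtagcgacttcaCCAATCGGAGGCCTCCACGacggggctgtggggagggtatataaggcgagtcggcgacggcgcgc
Hsp90b1: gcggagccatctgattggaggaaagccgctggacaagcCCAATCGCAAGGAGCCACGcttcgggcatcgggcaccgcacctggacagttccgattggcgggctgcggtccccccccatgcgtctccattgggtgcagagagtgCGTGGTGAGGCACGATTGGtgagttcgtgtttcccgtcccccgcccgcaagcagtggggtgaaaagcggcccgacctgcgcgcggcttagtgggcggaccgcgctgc
Dnaja1: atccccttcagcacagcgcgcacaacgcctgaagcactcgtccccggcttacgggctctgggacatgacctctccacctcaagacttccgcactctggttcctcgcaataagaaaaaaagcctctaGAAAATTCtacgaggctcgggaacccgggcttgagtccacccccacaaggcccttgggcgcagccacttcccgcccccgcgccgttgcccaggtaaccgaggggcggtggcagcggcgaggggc
Fkbp4: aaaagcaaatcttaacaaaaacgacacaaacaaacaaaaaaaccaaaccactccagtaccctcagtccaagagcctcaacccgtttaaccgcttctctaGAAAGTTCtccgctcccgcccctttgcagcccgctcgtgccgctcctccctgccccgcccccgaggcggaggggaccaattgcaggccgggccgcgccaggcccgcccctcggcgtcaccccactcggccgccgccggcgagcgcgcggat

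Among the members listed as targets of heat shock factors, 15 were measured, with 5 positive and 10 negative means and a median of -0.20. There were 9 positive and 6 negative with array 3 turned the other way. Under an unadjusted p of 0.05 were Dnaja1, positive, and Tcp1 and Fkbp4, negative. Of all genes 9.89% were under it and positive, and 9.69% were under it and negative. The 13 members listed as targets of the unfolded protein response had 5 positive and 8 negative means and a median of -0.12. Under that threshold were Dnajb9 and Hspa13, positive, and Pdia3 and Pdia5, negative. Neither list lay on 1 side.

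Array 3, with the other dye order, differed in sign from both arrays 1 and 2 for many members. Arrays 1 and 2 shared a sign for 72 of 89 members, 80.9%, against 71.1% of all genes. Arrays 1 and 3 did so for 62.9% of members and arrays 2 and 3 for 52.8%, against 60.9% and 59% of all genes. Across members, Pearson correlations were 0.561 for arrays 1 and 2, 0.586 for arrays 1 and 3 and 0.191 for arrays 2 and 3. In the same order, Spearman correlations were 0.675, 0.507 and 0.229. For 29 members, 32.6%, arrays 1 and 2 shared a sign and array 3 had the other, against 25.6% of all genes. They included 5 of the 7 small heat shock protein genes, 3 of the 5 BAG genes and 10 of the 24 class C J protein genes, but 1 of the 10 FK506-binding protein genes and 0 of the 4 disulfide isomerases. The part of the dye in these ratios was not tested. With a dye term in the fit 19 of the 21 members stayed under an unadjusted p of 0.05, all but Dnajc24 and Dnajc1.

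**Figure D4:**
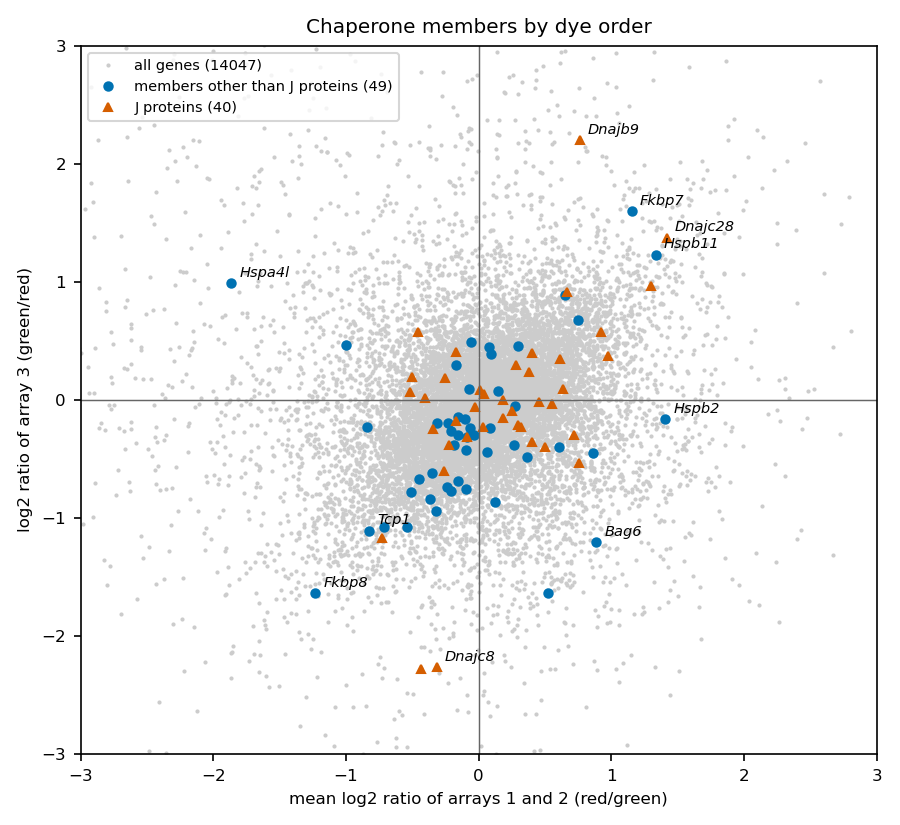
Log2 ratio of array 3 (y axis, dye order green/red) against the mean log2 ratio of arrays 1 and 2 (x axis, red/green) for all genes (grey), the 49 members other than J proteins (blue circles) and the 40 J proteins (orange triangles), with 258 genes outside the limits of 3 on each axis. Dnajb9, Fkbp7, Dnajc28 and Hspb11 lie in the upper right and Fkbp8 and Tcp1 in the lower left, while Bag6, Hspb2 and Hspa4l lie where array 3 has the other sign.

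Other genes of protein folding, taken from lists that hold no member, included larger ratios than the members. Of 16 heat shock factor and HSP90 cochaperone genes 1 positive and 4 negative were under an unadjusted p of 0.05. Of all genes 9.89% and 9.69% were. The median of the 16 was -0.24. Stip1, which encodes HOP, the adaptor that joins HSP70 to HSP90, had -2.66, -2.05 and -2.99, and its mean was -2.57 ± 0.47. Cdc37, the HSP90 cochaperone of kinases, had -1.05, -1.20 and -1.34, with a mean of -1.20 ± 0.14. St13, which encodes the HSP70 cofactor HIP, lay on the other side at 1.67, 1.21 and 1.17, with a mean of 1.35 ± 0.28. Each had 1 sign on all arrays and an adjusted p of 0.149 by limma. The other genes under the threshold, Ptges3 and Ttc4, named after their values were seen, encode HSP90 cochaperones and had means of -0.99 ± 0.14 and -0.78 ± 0.16.

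Prefoldin delivers actin and tubulin chains to the CCT chaperonin, and tubulin cofactors act after it. Of 15 such genes 5 positive and 1 negative were under an unadjusted p of 0.05, against 9.89% and 9.69% of all genes. The median of the 15 was 0.30, while that of CCT itself was -0.21. Pdcl3, a phosducin-like cofactor of CCT, had 0.93, 0.86 and 0.64. Mkks, a chaperonin-like protein of ciliary function, had 0.71, 0.66 and 0.65, and the prefoldin subunit gene Pfdn4 had 0.70, 0.60 and 0.74. These were positive on every array with means of 0.81 ± 0.15, 0.67 ± 0.03 and 0.68 ± 0.07, at adjusted p of 0.158, 0.162 and 0.162 by limma.

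Other endoplasmic reticulum folding and stress genes had a median of 0.06. Of 28 such genes 4 positive and 3 negative were under an unadjusted p of 0.05, against 9.89% and 9.69% of all genes. Xbp1, a transcription factor of the unfolded protein response, had -0.88, -0.87 and -0.81, with a mean of -0.85 ± 0.04 and an adjusted p of 0.157 by limma. Calr, which encodes the lectin chaperone calreticulin, had -0.74, -0.44 and -0.84, all negative like Pdia3. Canx, which encodes the partner lectin calnexin and was named after its values were seen, had -0.06, 2.06 and -0.75, with a mean of 0.42 ± 1.47. Sel1l, of the degradation pathway for misfolded proteins, had 0.33, 0.51 and 0.43. Of 11 mitochondrial folding and protease genes 1 positive and 1 negative were under the threshold, against 9.89% and 9.69% of all genes. The median of the 11 was -0.22, and Clpb had a mean of -0.64 ± 0.25 while Clpx had 0.82 ± 0.47. Ppif, a mitochondrial prolyl isomerase, had -0.34 ± 0.23. The lens and muscle small heat shock protein gene Cryab had -0.28, 0.80 and -0.92.

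By limma, 0 of 14047 genes and 0 of 19660 probes were under an adjusted p of 0.05, and 2750 genes and 3432 probes were under an unadjusted p of 0.05. Markers of metanephric mesenchyme lay on both sides, with 7 of 11 means positive, and so did those of the ureteric bud, with 6 of 9 positive. Endothelial markers had 8 of 8 negative means, yolk sac, liver and gut markers 5 of 6 negative, and macrophage markers 5 of 5 positive. Erythroid markers had 5 of 6 negative means and neuronal and neural crest markers 3 of 5. The part of these cell types in the ratios of the members was not tested.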

How the data were processed

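Images were read with Imagene 5.5. Per the labels' descriptions, the authors normalized in R within print tips by lowess and then across arrays. Each lowess point drew on 20% of the data, and control channel values under 10 were raised to 10, per the same descriptions. The deposited values are log2 ratios, used as the authors normalized them. The lowest deposited ratio was 0.01 before taking log2. Intensities were not used here, so signal over background is unknown.

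Of 21918 gene probes, 19660 had a value on all 3 arrays. The platform annotation gave 16656 probes 1 symbol; Entrez identifiers matched 15970 of them to RefSeq and changed 0 symbols. The complete probes of each symbol were averaged on each array, for 14047 genes in all. A two-sided test of the mean log2 ratio against 0 used limma 3.58.1 (lmFit, eBayes; R 4.3.3), with Benjamini-Hochberg adjustment over all genes. Values after ± are SDs. The labels do not say whether array 3 was already turned to the orientation of arrays 1 and 2. Across probes it correlated with arrays 1 and 2 at Pearson 0.0517 and 0.0148 and at Spearman 0.211 and 0.171. Of all genes 45.5% had 1 sign on all arrays. For 25.6% arrays 1 and 2 shared a sign and array 3 had the other. Array 3 was taken as already turned.

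The fit was tested on simulated data. The members and lists were chosen with earlier results of these data known. Named with values were, per class, up to 3 members of smallest p, all at an unadjusted p under 0.05, widely studied members, those of largest spread and those whose probes disagreed in sign, and up to 3 genes per other list. Plots used Matplotlib 3.10.9 in Python 3.11.15. Alternatives were median centring, scaling, a dye term, array 3 turned, the median of probes, values on at least 2 arrays, unmoderated variances, ratios limited to 3 in log2 size, and each array left out.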

Additional observations from a re-analysis of the deposited data

How the results depend on the processing

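With 3 arrays, true differences may miss the adjusted threshold, and the adjusted count by limma stayed at 0 genes and 0 members under the 11 alternatives run on genes. For probes it was 0 under those run on them, which were the dye term, array 3 turned and each array left out. Each ratio already sets both tissues of an array against each other, so testing its mean against 0 pairs the tissues by array. No further pairing was possible because there is a single group of arrays. Centring, scaling, the median of probes, values on at least 2 arrays, unmoderated variances and limited ratios reversed none of the named genes and kept the counts of genes and members within 1.5 times. Several of these could hardly reverse a sign. Unmoderated variances leave each mean as it is, for members the median of probes equals their mean, and centring moves all means by the same small amount. With unmoderated variances 16 of the 21 members stayed under an unadjusted p of 0.05, and Hspb3, Dnaja1, Dnajb9, Fkbp4 and Pdia3 did not. With array 3 turned the other way, the counts at an unadjusted p under 0.05 were 779 genes, 1158 probes and 3 members, of which 3 were positive and 0 negative. With an array left out they were 1156 to 2943 genes, 1377 to 3690 probes and 10 to 20 members, with 5 to 13 positive and 5 to 7 negative.

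Medians with array 3 turned were 0.080 for all members, 0.043 for HSP70 and HSP110, -0.066 for the mitochondrial chaperonin, 0.094 for the HSP-binding cofactors, 0.088 for class A J proteins, 0.0034 for the disulfide isomerases, 0.035 for endoplasmic reticulum members, 0.080 for mitochondrial members, 0.0051 for heat shock factor targets, -0.016 for unfolded protein response targets, 0.084 for FK506-binding proteins, 0.19 for BAG cochaperones and 0.072 for heat shock factors and HSP90 cochaperones. The median of mitochondrial members was 0.059 with the dye term. With an array left out, medians ran from -0.041 to 0.040 for class B J proteins, -0.017 to 0.29 for class C J proteins, -0.11 to 0.017 for FK506-binding proteins, -0.19 to 0.086 for BAG cochaperones, -0.082 to 0.012 for endoplasmic reticulum members, -0.087 to 0.078 for mitochondrial members and -0.11 to 0.048 for other endoplasmic reticulum genes.

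Named genes that changed sign with array 3 turned were Hsph1 at 0.0051, Hspa9 at 0.048, Hspa5 at 0.074, Hspd1 at 0.080, Hspbp1 at 0.099, Hspbap1 at 0.090, Dnajb9 at -0.23, Dnajc8 at 0.54, Fkbp4 at 0.0016, Bag4 at 0.19, Pdia3 at 0.035, Pdia6 at 0.12 and Cryab at 0.48. With the dye term they were Hspe1 at 0.063, Hspb1 at 0.0081, Dnaja3 at 0.059, Bag6 at -0.16 and Bag3 at -0.058. With an array left out, values ran from -1.87 to 0.38 for Hspa4l, -0.17 to 0.078 for Hspe1, -0.076 to 0.026 for Hspb1, -0.46 to 0.086 for Dnaja3, -0.25 to 0.013 for Dnajc2, -0.19 to 0.066 for Bag4, -0.42 to 0.88 for Bag6, -0.14 to 0.27 for Bag3 and -0.60 to 0.26 for Cryab. The cause was not tested. Of these genes, Dnajb9, Fkbp4 and Pdia3 were under an unadjusted p of 0.05 in the reported fit. With values on at least 2 arrays Tcp1 was -0.45, because its second probe then entered the mean.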
